A study of Mus musculus with 18 samples.

Results

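The acid secretion machinery of the parietal cell was followed through the mouse stomach with 10 genes. Atp4a and Atp4b encode the proton pump, Kcnq1, Kcne2, Kcnj15 and Kcnj16 encode potassium channels or channel subunits, Clic6 belongs to the chloride intracellular channel family, and Slc4a2, Slc26a7 and Slc9a4 encode ion exchangers. The genes were chosen for these roles, and the count tables of both datasets held all 10, among 26114 gene names in dataset 1 and 29195 in dataset 2. Levels are given as counts per 1000000 (CPM): the UMIs (unique molecular identifiers, 1 per captured molecule) of a gene among 1000000 UMIs of a cell type or cluster. Levels of different genes were not ranked against each other, because transcript length and capture differ between genes.

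Gastric acid is made by the H+/K+-ATPase, whose catalytic alpha subunit comes from Atp4a and whose glycosylated beta subunit comes from Atp4b. The pump lies in tubulovesicles of the resting parietal cell and reaches the apical membrane when these fuse with it. It exchanges a cytosolic proton for a luminal potassium ion, so potassium must flow back through apical channels, of which the KCNQ1 channel with its accessory subunit KCNE2 is the best known. The base left in the cytosol leaves the cell as bicarbonate in exchange for chloride through anion exchangers of the basolateral membrane. Slc4a2 and Slc26a7 encode such exchangers, and Slc9a4 encodes a sodium/proton exchanger of that membrane.

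Both datasets held cells of untreated 10-week-old male wild-type C57BL/6J mice, measured by Quartz-Seq2, a plate-based 3′ single-cell RNA-seq method. Dataset 1 held cells of corpus and antrum gastric units sorted, per the labels, as ToPro3(-) in the pools tube1 and tube2, and dataset 2 held cells of corpus units sorted as Hoechst33342(+) and ToPro3(-) in the pools K and T. Each pool came from 3 mice, each dataset had 2 pools, and each pool was spread over 3 plates in dataset 1 and 6 in dataset 2, so that n = 2 pools throughout and single mice could not be separated. The 2 pools of a dataset were prepared by different operators, and operator and mice cannot be told apart. The mice carried no transgene or deletion that the labels name.

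Of 2304 wells of dataset 1 and 4608 of dataset 2, 1812 and 615 fell under 2500 detected genes and were not kept. With 1 further well of dataset 1 that the annotation did not hold, 491 and 3993 cells were left. The plates held 3054370 to 5346035 UMIs in dataset 1 and 10540256 to 12850942 in dataset 2. The deposited annotation divided the cells into 15 clusters in dataset 1 and 20 in dataset 2. The study named cluster 0 of dataset 1 (57 cells, 17 in tube1 and 40 in tube2) and clusters 1 and 8 of dataset 2 (458 and 244 cells) as parietal cells, from known marker genes. The clusters were made from the same counts, so every p-value below also carries the clustering. All 384 well barcodes were shared by all plates by design.

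The parietal label was checked on 5 parietal genes that are not among the 10: Aqp4, Esrrg, Cckbr, Hrh2 and Ppargc1a. All 5 had UMIs in each parietal cluster, and their summed level was 933 CPM in cluster 1, 1223 in cluster 8 and 1035 in cluster 0 of dataset 1. The sum lay between 14 and 119 in the other clusters of dataset 2, except for 507 in cluster 14, which carried endocrine markers. Stromal markers were at 0 in clusters 1 and 8, and leukocyte markers at 0.0928 CPM in cluster 1 and 0 in cluster 8. The 3 endothelial markers summed to 70.8 in cluster 1 and 55.6 in cluster 8, nearly all of it Plvap, against 0.285 to 1.33 in the other named epithelial clusters of dataset 2. The 3 chief cell markers (Cblif, Pgc and Bhlha15) summed to 4078 in cluster 1 and 11788 in cluster 8, nearly all of it Pgc.

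The genes lie on 7 chromosomes of the GRCm39 assembly. Atp4a (chr7:30411634-30424959, plus strand) and Kcnq1 (chr7:142660099-142980788, plus) share chromosome 7. Kcne2 (chr16:92089219-92095027, plus), Clic6 (chr16:92282624-92338739, plus) and Kcnj15 (chr16:95058417-95101119, plus) share chromosome 16. Atp4b (chr8:13436205-13446825, minus), Kcnj16 (chr11:110858843-110927617, plus), Slc4a2 (chr5:24628835-24645948, plus), Slc26a7 (chr4:14502430-14621819, minus) and Slc9a4 (chr1:40619131-40670186, plus) each lie alone. Kcne2 and Clic6 are 187596 bases apart, with the 5 protein-coding genes Smim11, Fam243, Smim34, Kcne1 and Rcan1 between them. Exons of Slc4a2 overlap the span of Fastk on the other strand and that of a protein-coding gene without a symbol on the same strand. Exons of Kcnj15 and Slc9a4 overlap the spans of antisense long non-coding RNA genes.

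Promoter windows are shown because most of the genes were high in the same cells. RefSeq windows from 250 bases before to 50 after a transcription start, on GRCm38.p6, were found for 5 of the 10 genes (10 windows). The 4 printed below belong to a pump subunit, the KCNQ1 accessory subunit and the 2 inward rectifiers, and capitals mark a match to AAGGTCA (the half-site of estrogen-related receptors), GATAAG (recognised by zinc finger factors of the GATA family) or TATAAA (a core promoter box), searched on both strands. They are Atp4a (chr7:30711959-30712258), Kcne2 at its second start (chr16:92295366-92295665), Kcnj15 (chr16:95257308-95257607) and Kcnj16 at its first start (chr11:110967783-110968082), each 5′ to 3′ on the strand of the gene:
Atp4a: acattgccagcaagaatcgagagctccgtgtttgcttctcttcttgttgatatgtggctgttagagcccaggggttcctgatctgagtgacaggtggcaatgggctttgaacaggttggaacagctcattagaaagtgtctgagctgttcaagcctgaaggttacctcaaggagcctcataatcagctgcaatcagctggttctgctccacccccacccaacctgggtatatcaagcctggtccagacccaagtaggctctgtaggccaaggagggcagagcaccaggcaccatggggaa
Kcne2: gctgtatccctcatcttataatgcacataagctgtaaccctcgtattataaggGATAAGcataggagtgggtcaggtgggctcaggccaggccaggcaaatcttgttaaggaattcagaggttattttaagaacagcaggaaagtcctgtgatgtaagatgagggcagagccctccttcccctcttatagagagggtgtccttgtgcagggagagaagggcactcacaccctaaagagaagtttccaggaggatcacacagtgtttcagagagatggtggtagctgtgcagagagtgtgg
Kcnj15: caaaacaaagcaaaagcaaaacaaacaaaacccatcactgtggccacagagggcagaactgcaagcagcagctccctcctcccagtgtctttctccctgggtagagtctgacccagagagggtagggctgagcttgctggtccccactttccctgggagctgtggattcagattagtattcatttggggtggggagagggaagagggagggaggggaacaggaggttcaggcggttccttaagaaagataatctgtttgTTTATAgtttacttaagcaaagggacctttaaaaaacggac
Kcnj16: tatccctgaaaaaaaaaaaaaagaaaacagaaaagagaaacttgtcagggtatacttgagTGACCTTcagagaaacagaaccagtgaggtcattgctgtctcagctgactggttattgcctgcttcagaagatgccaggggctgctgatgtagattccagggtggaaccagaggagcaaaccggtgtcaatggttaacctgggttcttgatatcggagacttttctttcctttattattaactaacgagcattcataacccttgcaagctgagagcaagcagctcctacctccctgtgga
GATAAG began at base -197 of the Kcne2 window, counted from the start site, and AAGGTCA at base -190 of the Kcnj16 window on the other strand. TATAAA lay at base 10 of the Kcnj15 window on the other strand, and at base -133 of the Kcnj16 window at the third start, which is not printed. Among all 32851 windows, 4.72% held AAGGTCA, 7.44% GATAAG and 13.6% TATAAA. The Atp4a window held no match. The same was true of 5 windows that are not printed: Kcne2 at start 1, Kcnj16 at starts 2 and 4, and Slc4a2 at starts 1 and 2. The printed windows hold most of the matches found, so their share with a match cannot be set beside these percentages. A match here is a string of letters, and binding was not measured.

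**Figure D1:**
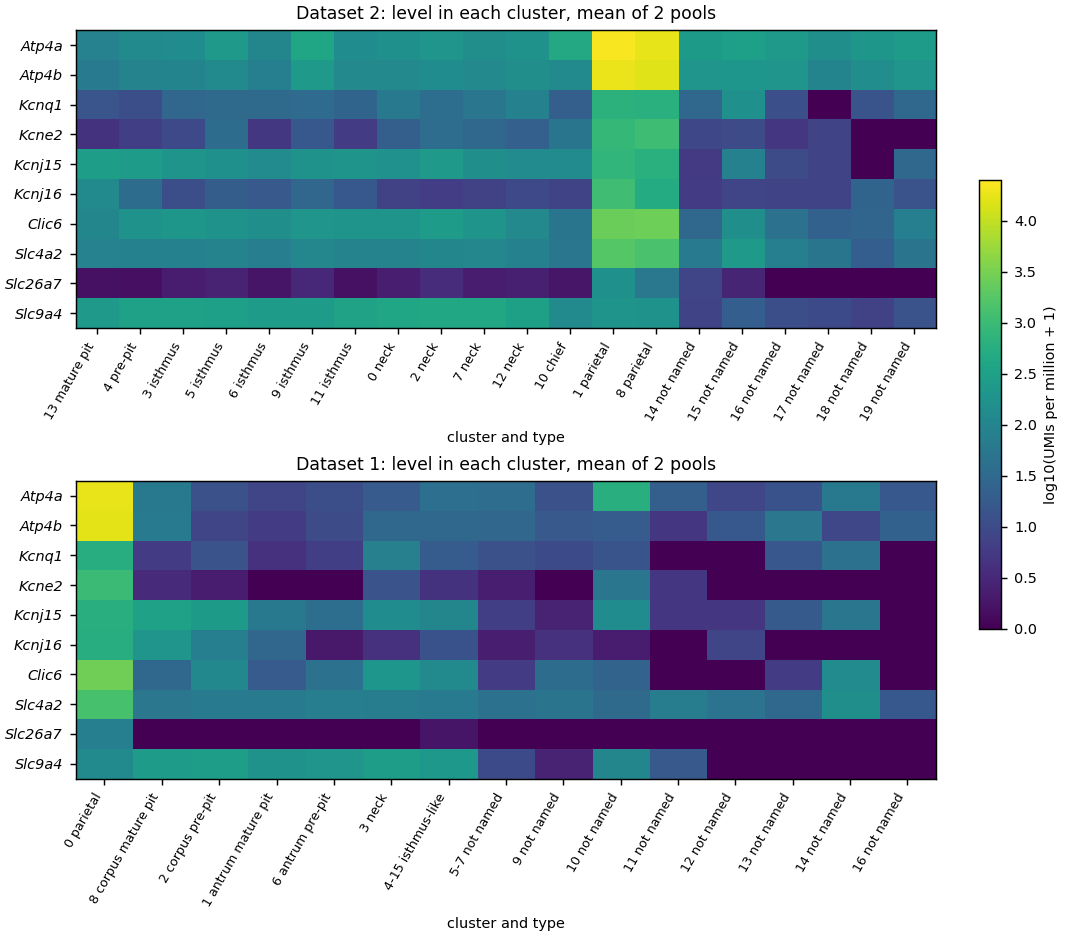
Level of each of the 10 genes in every cluster of both datasets, as log10(CPM + 1), mean of 2 pools. Of the 10 genes, 9 are highest in the parietal clusters (0 in dataset 1, 1 and 8 in dataset 2), while Slc9a4 is higher in neck, isthmus and pit clusters than in the parietal clusters.

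How far each gene set parietal cells apart from the other gastric epithelium was asked first. In dataset 2, 9 of the 10 genes were higher in parietal cells than in the mean of pre-pit, mature pit, isthmus, neck and chief cells, and 1, Slc9a4, was lower. Among all 13894 genes tested there, 35.2% were called higher and 32.6% lower, with edgeR's quasi-likelihood test and an adjusted p under 0.05. The direction of each gene was the same in dataset 1, where the background was 31.7% higher and 26.9% lower of 10229 genes. The median log2 difference of the 10 genes was 5.42 in dataset 2 and 5.73 in dataset 1, beside -0.03 and -0.01 over all genes tested. The study counts Atp4b and Kcnq1 among parietal cell markers, so their rise may be partly built into the cluster names. Scaling by total UMIs in place of TMM moved the median of all genes by -0.20 in dataset 2 and -0.16 in dataset 1, and called 3883 genes higher and 5685 lower in dataset 2 in place of 4889 and 4530. All 10 genes kept their direction and their call under it.

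Both pump genes were far higher in parietal cells than in any other named type. Atp4a held 21252 CPM in parietal cells of pool K and 19971 in pool T, and 18376 and 18186 in tube1 and tube2. In the other types of dataset 2 it held 492 and 408 in chief cells (K and T), 234 and 145 in isthmus cells, 196 and 146 in neck cells, 145 and 110 in pre-pit cells and 102 and 75.6 in mature pit cells. Neither pool of any other type came near the parietal range. The difference was 7.09 ± 0.13 (log2, SE; adjusted p = 1.00e-14, edgeR's quasi-likelihood test), and parietal cells held 97.4% of the Atp4a UMIs of the named epithelial types.

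Atp4b held 18193 and 17009 CPM in parietal cells of K and T, and 16666 and 16339 in tube1 and tube2. Elsewhere in dataset 2 it held 136 and 113 in neck, 131 and 113 in chief and 146 and 94.9 in isthmus cells, and the pools of these types overlapped. Its lowest values were 75.7 and 48.1 in mature pit cells. The difference was 7.66 ± 0.12 (log2, SE; adjusted p = 2.99e-15, edgeR's quasi-likelihood test).

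The pump levels outside parietal cells were lower in dataset 1. Atp4a there held 311 UMIs in all other named types together against 63473 in parietal cells, a ratio of levels of 752 (exact 95% interval 673 to 843, counting error only), beside 111 (109 to 112) in dataset 2. For Atp4b the ratio was 750.0 (667 to 846) in dataset 1 and 154 (152 to 157) in dataset 2. The datasets differed in region, sort and depth, and the difference between them was not tested. Wells under 2500 genes held 600.2 and 390.4 CPM of Atp4a in tube1 and tube2, and 3948 and 3688 in K and T. Whether free RNA took part in the levels outside parietal cells was not tested.

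Among the channels, Kcnq1, the pore of the potassium recycling channel, held 678 and 644 CPM in parietal cells of K and T, and 618 and 503 in tube1 and tube2. Neck cells came next with 53.6 and 57.5 in dataset 2 and 88.7 and 73.2 in dataset 1, above isthmus cells at 30.6 and 30.1, chief cells at 22.0 and 19.3, and both pit types at 16.2 or less. The parietal difference was 5.13 ± 0.07 (log2, SE; adjusted p = 1.19e-15, edgeR's quasi-likelihood test). Kcnq1 overlaps its antisense transcript Kcnq1ot1, which went the other way: 4.41 and 4.15 CPM in parietal cells of K and T, against type means of 68.8 to 114 elsewhere. Its difference was -4.21 ± 0.24 in dataset 2 and -4.63 ± 0.39 in dataset 1 (adjusted p = 1.93e-09 and 6.32e-09, edgeR's quasi-likelihood test), a gene named after its values were seen. Whether the counting used strand is not given in the sources used here, so reads of overlapping genes may not be fully separated.

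Kcne2, which keeps the KCNQ1 channel open at acid pH, held 944 and 948 CPM in parietal cells of K and T, and 978 and 1024 in tube1 and tube2. Chief cells followed at 49.7 and 49.6, then neck cells at 31.1 and 23.8 and isthmus cells at 18.1 and 11.9. Pit cells were lowest, at 6.10 and 5.12 in pre-pit and 5.54 and 1.38 in mature pit cells. The difference was 6.396 ± 0.12 (log2, SE; adjusted p = 1.47e-14, edgeR's quasi-likelihood test). In dataset 1 both antrum pit types were at 0, and the other named types together held 35 UMIs against 3510, a ratio of levels of 369 (265 to 531, counting error only).

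After parietal cells, the inward rectifier genes were highest in the pit cells of dataset 2. Kcnj15 held 722 and 701 CPM in parietal cells of K and T, and 317 and 244 in mature pit, 290.3 and 227 in pre-pit, 197 and 156 in neck, 187 and 148 in isthmus and 128 and 131 in chief cells. Both pools of every named type carried UMIs of the gene, and its parietal difference was the smallest of the 9 rises, at 2.08 ± 0.09 (log2, SE; adjusted p = 1.08e-10, edgeR's quasi-likelihood test). Parietal cells held 57.1% of its UMIs.

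Kcnj16, which forms mixed channels with other Kir subunits, held 977 and 815 CPM in parietal cells of K and T, and 496 and 591 in tube1 and tube2. Mature pit cells followed with 123 and 131, and pre-pit cells with 34.7 in both pools. Isthmus cells held 19.4 and 14.6, and chief and neck cells held 8.86 or less. The difference was 5.71 ± 0.09 (log2, SE; adjusted p = 3.67e-15, edgeR's quasi-likelihood test).

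Clic6 held 2586 and 2704 CPM in parietal cells of K and T, and 2649 and 2982 in tube1 and tube2. Neck cells held 214 and 188, isthmus cells 189 and 179.9, pre-pit cells 175 and 168.9, mature pit cells 111 and 98.0, and chief cells 51.2 and 47.8. The parietal difference was 4.58 ± 0.05 (log2, SE; adjusted p = 4.38e-16, edgeR's quasi-likelihood test). Neck and isthmus pools overlapped, and chief cells lay below every other type.

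Slc4a2, the anion exchanger that trades bicarbonate for chloride, held 1646 and 1598 CPM in parietal cells of K and T, and 1199.6 and 1384 in tube1 and tube2. The other types were close together: 101 and 94.7 in neck, 86.5 and 89.1 in isthmus, 91.0 and 84.6 in mature pit, 81.2 and 89.6 in pre-pit and 48.1 and 57.2 in chief cells. The parietal difference was 4.53 ± 0.06 (log2, SE; adjusted p = 1.14e-15, edgeR's quasi-likelihood test). Fastk, whose span overlaps exons of Slc4a2, differed by 1.06 ± 0.07 on the same scale.

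Slc26a7, an anion exchanger of the SLC26 family, had few UMIs outside parietal cells. It held 128 and 117 CPM there in K and T and 91.4 and 67.3 in tube1 and tube2, against 2.13 or less in each pool of the other named types of dataset 2. The difference was 7.27 ± 0.18 in dataset 2 (log2, SE; adjusted p = 2.49e-13, edgeR's quasi-likelihood test). In dataset 1 the other named types held 2 UMIs, both in 1 cell of the isthmus-like cluster, against 261, a ratio of levels of 481 (132 to 3991, counting error only).

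Slc9a4 broke the pattern. Parietal cells held 198 and 168.9 CPM in K and T, below 406 and 374 in neck, 320.3 and 324 in pre-pit, 311 and 289.7 in isthmus and 234 and 247 in mature pit cells, and above 123 and 119.9 in chief cells. Parietal cells held 16.6% of its UMIs. The difference was -0.28 ± 0.08 in dataset 2 (log2, SE; adjusted p = 0.00467, edgeR's quasi-likelihood test). It was -0.17 with an adjusted p of 0.126 by the same test without pool T of the parietal cells. In dataset 1 parietal cells held 121 and 136, below both pools of the neck, pit and isthmus-like types, which ranged from 179.5 to 299.9, and the difference was -0.73 ± 0.12 (adjusted p = 3.77e-05, edgeR's quasi-likelihood test).

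**Figure D2:**
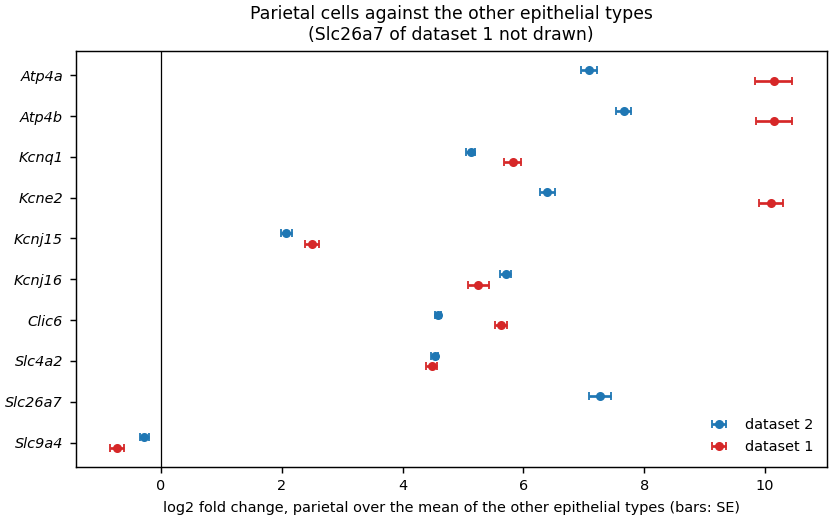
Log2 difference between parietal cells and the mean of the other epithelial types for each gene, with its SE from edgeR, in dataset 1 and dataset 2. Of the 10 genes, 9 lie above 0, from 2.08 for Kcnj15 to 7.66 for Atp4b in dataset 2, and Slc9a4 lies below 0 in both; the dataset 1 value of Slc26a7 is not drawn because the other types held 2 UMIs.

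The share of cells with a UMI was read at equal depth. Each cell was thinned to 10000 UMIs, and shallower cells were left out of these shares. Atp4a, Atp4b and Clic6 were then found in every parietal cell of dataset 2 that was deep enough, Kcne2 in 99.6%, Kcnq1 in 97.0%, Kcnj16 in 96.9%, Slc9a4 in 83.5% and Slc26a7 in 58.5%. Slc9a4 was found in 97.0% of neck cells, 94.2% of pre-pit cells and 93.1% of isthmus cells, all above its parietal share. Atp4a was found in 56.4% of mature pit cells, a type that should lack the pump, so shares of that order cannot be read as expression. These shares describe cells of 2 pools, and no test was made on them.

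**Figure D3:**
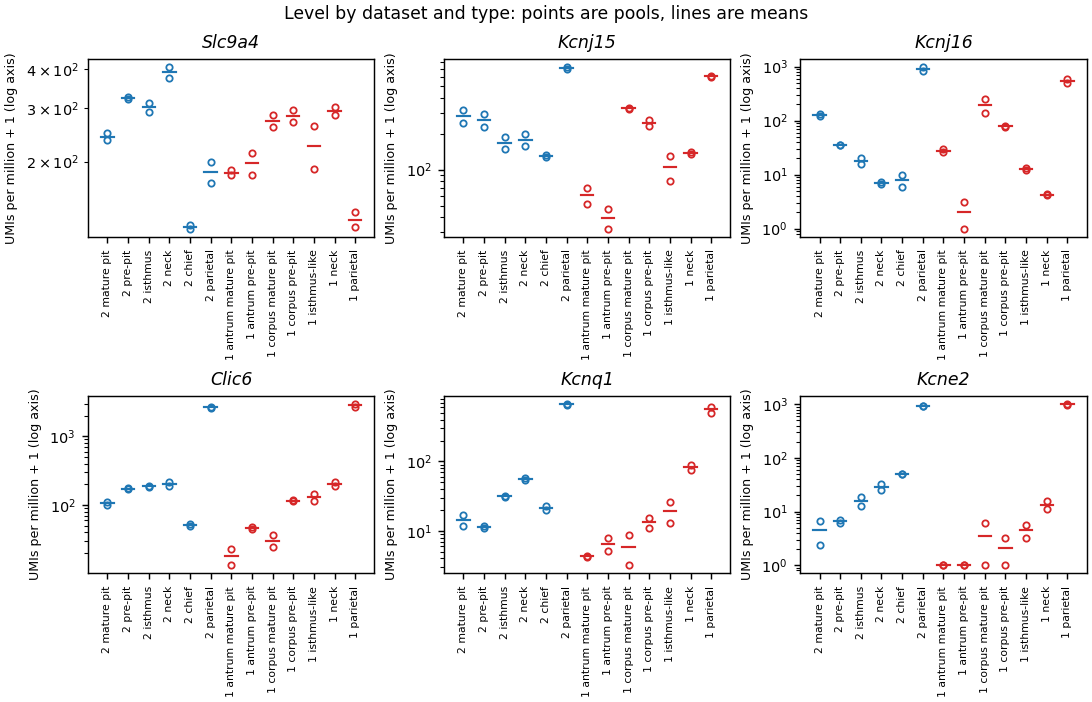
Level of Slc9a4, Kcnj15, Kcnj16, Clic6, Kcnq1 and Kcne2 in each named cell type of both datasets (CPM, log axis); each point is 1 pool. Kcnj15 and Kcnj16 are second highest in corpus mature pit cells, Kcnq1 and Clic6 in neck cells, and Slc9a4 is lower in parietal cells than in neck cells in all 4 pools.

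The order of all 20 clusters of dataset 2 was then read with the pool ranges. For Atp4a, clusters 1 and 8 were apart from the rest and from each other, and 17 of the 19 neighbouring pairs overlapped. For Slc9a4, 9 of 19 pairs overlapped, and the top of the order was made of neck clusters: cluster 7 at 432 ± 10.6 (SD, n = 2), cluster 2 at 409 ± 17.5 and cluster 0 at 380.2 ± 11.1. Clusters 1 and 8 came late at 186 ± 20.5 and 178 ± 18.8 and overlapped each other, and the 6 clusters outside the named epithelial types held 19.3 or less. Cluster 15 (32 cells), with tuft and stromal markers, was the third for Kcnq1 at 158.1 ± 52.1 and for Slc4a2 at 229 ± 33.4. Cluster 14 was the third for Slc26a7 at 7.31 ± 5.34, from 7 UMIs.

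The pattern of each gene over the 28 sums of 14 epithelial clusters and 2 pools was compared with that of Atp4a, on log2(CPM + 1). Pearson's r was 0.99 for Atp4b, 0.95 for Slc26a7, 0.94 for Kcne2, 0.94 for Slc4a2, 0.89 for Kcnq1, 0.87 for Clic6, 0.82 for Kcnj15, 0.79 for Kcnj16 and -0.58 for Slc9a4. Sums of 1 pool share their mice and plates, and the coefficient is descriptive. Among all 12922 genes, those most like Atp4a were Ckb (0.99), Tnni3 (0.98) and Smim38 (0.98). Those most like Slc9a4 were Ncstn (0.96), Inafm1 (0.95) and Fermt1 (0.94), and those most like Kcnj15 were Ndufa13 (0.94), Cyp2j6 (0.94) and Cox17 (0.94).

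The 2 parietal clusters of dataset 2 differed in part of the machinery. Of the 10 genes, 5 were lower in cluster 8 than in cluster 1 and the other 5 did not pass, beside 27.2% of all 12922 genes called in either direction. The 5 were Kcnj15, Kcnj16, Slc4a2, Slc26a7 and Slc9a4. The median of the 10 genes was -0.55 (log2) beside -0.01 over all genes. Cluster 8 also had fewer mitochondrial UMIs (median 12.6% of a cell's UMIs, against 22.8% in cluster 1) and somewhat deeper cells (median 51292 against 45391 UMIs). It held more UMIs of the chief cell markers, nearly all of them Pgc. The study reports Pgc RNA in most gastric epithelial cells, with a gradient between pre-parietal and parietal cells. Pgc, which encodes pepsinogen C, differed by 1.30 ± 0.12 (log2, SE; adjusted p = 4.47e-08, edgeR's quasi-likelihood test). The part of these properties in the differences was not tested.

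The scaling mattered here. TMM called 1588 genes higher and 1922 lower in cluster 8, while scaling by total UMIs alone called 3562 higher and 953 lower and moved the median of all genes by 0.22. Under total UMIs, 3 of the 10 genes were called, Kcnj16 at -1.14, Slc26a7 at -1.52 and Slc4a2 at -0.35, while Kcnj15 (-0.34, adjusted p = 0.0959) and Slc9a4 (-0.07, adjusted p = 0.621) were not, all by edgeR's quasi-likelihood test.

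Slc26a7 showed the largest gap. It held 162.9 and 161.8 CPM in cluster 1 (K and T) and 54.3 and 59.0 in cluster 8, with no overlap. The difference was -1.74 ± 0.18 (log2, SE; adjusted p = 1.24e-07, edgeR's quasi-likelihood test), and its adjusted p was 0.102 with DESeq2. After thinning it was found in 71.8% of cluster 1 cells (exact 95% interval 67.5 to 75.9) and 33.3% of cluster 8 cells (27.4 to 39.6).

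Kcnj16 held 1216 and 1029 CPM in cluster 1 and 475 and 542 in cluster 8. Its difference was -1.36 ± 0.18 (log2, SE; adjusted p = 5.45e-06, edgeR's quasi-likelihood test). The spread between cells was wide in cluster 8, where the 5th and 95th percentiles of cells were 0.348 and 10.6 UMIs per 10000, beside 4.55 and 20.4 in cluster 1. Kcnj15 held 779.5 and 764 in cluster 1 and 601 and 620.1 in cluster 8, a difference of -0.56 ± 0.14 (adjusted p = 0.00471, edgeR's quasi-likelihood test). Without pool K of cluster 8 it was -0.50 with an adjusted p of 0.0737 by the same test.

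Slc4a2 held 1800.1 and 1720.35 CPM in cluster 1 and 1323 and 1442 in cluster 8, a difference of -0.57 ± 0.12 (log2, SE; adjusted p = 0.000648, edgeR's quasi-likelihood test). Slc9a4 held 201 and 172 in cluster 1 and 192 and 165.04 in cluster 8, so the pool ranges overlapped. Its difference of -0.29 ± 0.09 (adjusted p = 0.0202, edgeR's quasi-likelihood test) became -0.21 with an adjusted p of 0.211 without pool T of cluster 8.

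The pump itself was not called between the clusters in the fit of all epithelial clusters. Atp4a held 23414 and 21957 CPM in cluster 1 and 16708 and 17428 in cluster 8, and Atp4b 19837 and 18030.0 against 14736 and 15702. Both were lower in cluster 8 in both pools, with differences of -0.63 ± 0.41 and -0.54 ± 0.35 (log2, SE; adjusted p = 0.277 and 0.287, edgeR's quasi-likelihood test). The intervals of these differences were wide, and they do not show that the clusters had equal pump levels. Their SE drew on the spread of all epithelial clusters and not of clusters 1 and 8 alone. With plates as units, Atp4a was called (-0.61, adjusted p = 0.0362) and Atp4b was not (-0.51, 0.0559), by edgeR's quasi-likelihood test. With no low-count filter both were called by the same test (adjusted p = 4.92e-11 and 7.22e-08). Kcnq1 held 704 and 664 against 622 and 619, at -0.36 ± 0.16 (adjusted p = 0.107, edgeR's quasi-likelihood test). It was called with plates as units (-0.37, adjusted p = 1.75e-05) and with no low-count filter (-0.37, 0.00423), by the same test. Plates are technical splits of a pool.

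Kcne2 and Clic6 were not called between the clusters either, and neither was lower in cluster 8 in both pools. Kcne2 was at 883 and 840.1 CPM in cluster 1 and 1073 and 1087 in cluster 8, at 0.11 ± 0.18 (log2, SE; adjusted p = 0.719, edgeR's quasi-likelihood test). Clic6 was at 2569 and 2675 against 2623 and 2741, and its pool ranges overlapped. Its difference was -0.19 ± 0.08 (adjusted p = 0.0852, edgeR's quasi-likelihood test), 0.03 under total UMIs, and -0.19 with an adjusted p of 0.0411 when the pool was a term of the same test.

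**Figure D4:**
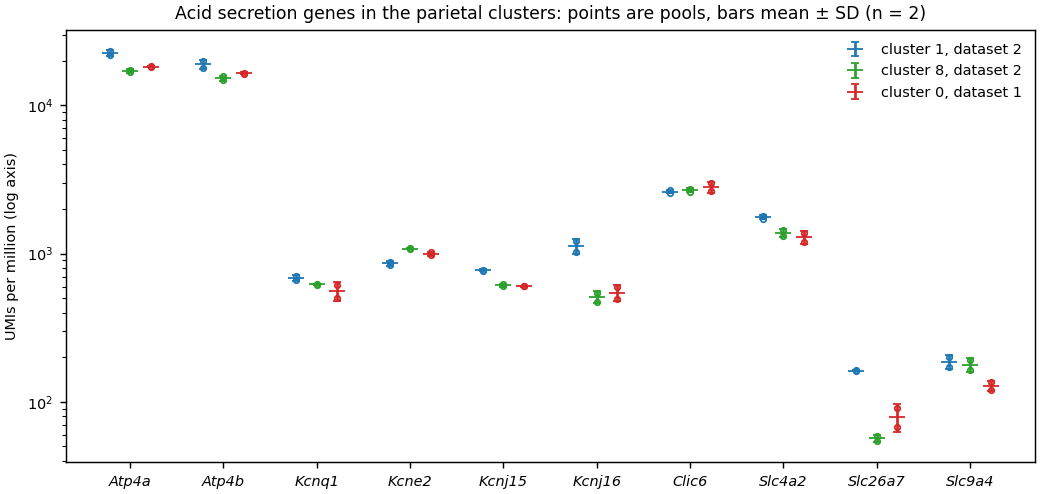
Level of the 10 genes in the parietal clusters 1 and 8 of dataset 2 and 0 of dataset 1 (CPM; bars are the mean and error bars the SD of 2 pools). Slc26a7 and Kcnj16 differ most between clusters 1 and 8, while Clic6 overlaps between them and Kcne2 is higher in cluster 8.

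Within a parietal cluster and pool, the cells themselves varied. Spearman's rho between Atp4a and Atp4b over cells lay between 0.592 and 0.796 in the 6 sets of 1 cluster and 1 pool. Atp4a went with Slc4a2 (0.488 to 0.689) and with Kcnj16 (0.275 to 0.625) in all 6 sets, and Kcnj16 with Slc26a7 (0.326 to 0.471). Kcne2 and Clic6 did not share this, with values against Atp4a of -0.446 to 0.259 and -0.428 to 0.181. Atp4a also went with the mitochondrial share of the cell (0.562 to 0.711), and Clic6 with total UMIs (0.353 to 0.591). The cells of a set share plates and depth, and these are descriptions.

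The pools K and T were set side by side over the plates of parietal cells. Each pool is 1 sample and its plates are technical splits, so the p-values below hold the difference against the spread between plates only and are no test between pools of mice. Over the plates, Kcnj16 and Slc9a4 were called lower in T and the other 8 genes were not, beside 2.24% of 9666 genes called in either direction. Kcnj16 lay between 901 and 1103 CPM on the 6 plates of K and between 711 and 895 on those of T, without overlap. Slc9a4 lay between 182 and 225 in K and between 154 and 185 in T. The differences were -0.31 ± 0.07 and -0.25 ± 0.06 (log2, SE; adjusted p = 0.0283 for both, edgeR's quasi-likelihood test). Parietal cells of K were 281 of cluster 1 and 119 of cluster 8, and those of T were 177 and 125. By the levels given above, Kcnj16 was lower in T in cluster 1 but higher in T in cluster 8. Slc9a4 was lower in T in both clusters. The part of this mix of clusters in the differences was not tested. Kcnj16 lost its call without any 1 of the plates p13 and p14 of K and p02, p05 and p08 of T (adjusted p 0.0595 to 0.0751 in edgeR's quasi-likelihood test). Slc9a4 lost its call without any 1 of p10, p13 and p14 of K and p02 and p08 of T (0.0529 to 0.0778 by the same test).

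The 10 genes were also compared among the other types. In chief against neck cells, 7 of the 10 genes were called, beside 38.6% of 13894 genes. Atp4a, Atp4b, Kcne2 and Kcnj16 were higher in chief cells under TMM, and Clic6, Kcnq1 and Slc9a4 were lower. The TMM factors were 0.690 and 0.679 in chief cells and 1.23 and 1.19 in neck cells. Scaling by total UMIs alone moved the median of all genes by -0.82 and called 712 genes higher and 9088 lower, in place of 2587 and 2771.

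Atp4a in chief cells held 492 and 408 CPM against 196 and 146 in neck cells, a difference of 2.22 ± 0.20 (log2, SE; adjusted p = 1.57e-06, edgeR's quasi-likelihood test), and 1.40 under total UMIs. Atp4b differed by 0.78 ± 0.19 (adjusted p = 0.00541, edgeR's quasi-likelihood test), by -0.04 under total UMIs, and had an adjusted p of 0.0551 without pool K of the chief cells. The 2 pump genes therefore did not stand in 1 ratio. Atp4a UMIs were 1.17 times those of Atp4b in parietal cells of both pools, but 3.77 and 3.60 times in chief cells (1277 against 339 and 1562 against 434 UMIs). In wells under 2500 genes the ratio was 1.82 in K and 2.11 in T. By the levels given above, neck, isthmus and mature pit cells also lay above the parietal ratio in both pools, though less far than chief cells.

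Cluster 10 of dataset 1, 21 cells with chief cell markers that entered no test, showed the same imbalance more strongly. It held 508 Atp4a against 15 Atp4b UMIs, with ratios of 68.4 in tube1 and 16.6 in tube2, while the parietal ratios there were 1.10 and 1.11. A few cells carried much of this: the 2 highest of the 21 held 57.7% of the Atp4a UMIs. In dataset 2 the 18 highest of 180 chief cells held 38.3%, and after thinning 92.2% of chief cells had an Atp4a UMI (exact 95% interval 87.3 to 95.7) beside 67.4% of neck cells.

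**Figure D5:**
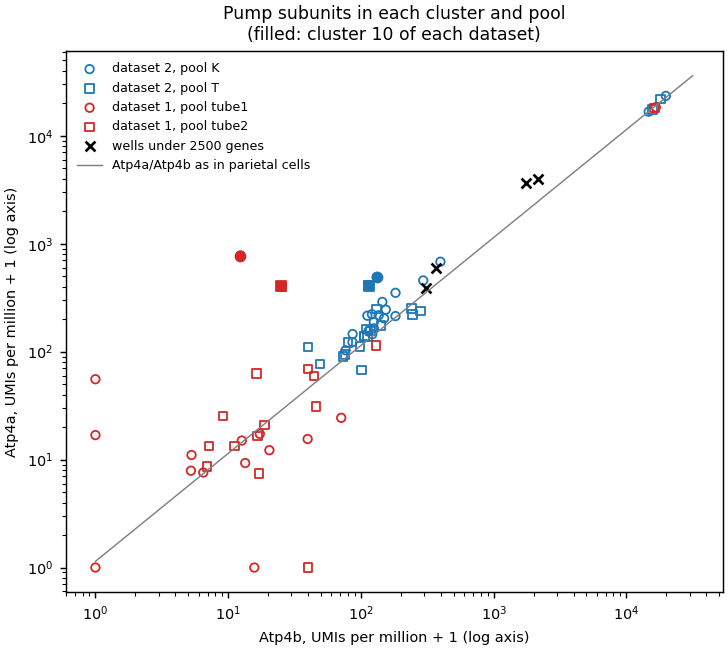
Atp4a against Atp4b in each cluster and pool (CPM, log axes); filled symbols are cluster 10 of each dataset, crosses are wells under 2500 genes, and the grey line is the parietal ratio. Cluster 10 lies on the Atp4a side of the line in all 4 pools, and the wells under 2500 genes lie on that side too.

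Kcne2 in chief cells differed from neck cells by 1.67 ± 0.20 (log2, SE; adjusted p = 2.10e-05, edgeR's quasi-likelihood test), and by 0.85 under total UMIs. Relative to the 2 pump genes together, chief cells held 3.33 and 3.71 times the parietal amount of Kcne2 in K and T, and neck cells held 3.92 and 3.59 times. Cluster 10 of dataset 1 held 2.58 and 3.83 times. Kcnj16 rested on few UMIs, at 0.95 ± 0.31 (adjusted p = 0.0249, edgeR's quasi-likelihood test), and was not called without pool K of the chief cells (0.52, adjusted p = 0.377, same test) or under total UMIs (0.13). Clic6 (-1.21 ± 0.10), Kcnq1 (-0.62 ± 0.14) and Slc9a4 (-0.87 ± 0.10) fell under both scalings. Kcnj15 was at 0.37 ± 0.15 (adjusted p = 0.0584), 0.39 (0.00376) with the pool as a term, and -0.45 under total UMIs, all by edgeR's quasi-likelihood test. Slc4a2 (-0.07) was not called except under total UMIs (-0.89), and Slc26a7 had 6 UMIs in chief cells.

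In neck against isthmus cells, 4 of the 10 genes were called, beside 50.7% of 13894 genes. Kcne2 (0.95 ± 0.18, adjusted p = 0.000747), Kcnq1 (0.94 ± 0.10, 6.67e-06) and Slc9a4 (0.44 ± 0.09, 0.00149) were higher in neck cells and Kcnj16 (-1.43 ± 0.18, 1.75e-05) was lower, on the log2 scale by edgeR's quasi-likelihood test. The pump genes, at -0.09 for Atp4a and 0.12 for Atp4b, were not called, and few cells shaped their isthmus level. Above 0.1 of the parietal median pump level lay 6 isthmus cells, 5 in cluster 5 and 1 in cluster 9, and 4 neck cells. In isthmus cluster 9, Atp4a held 680.2 CPM in K and 93.0 in T, and 1838 of the 2579 UMIs of both pools came from 1 cell. When cells of other types above 0.1 of the parietal median pump level were removed (17 of 3291 cells of dataset 2), 7 of the 8 genes other than Atp4a and Atp4b were called, and the pump values themselves (0.60 and 0.58) were set in part by the removal. With the pool as a term, Clic6 (0.19, adjusted p = 0.0352) and Slc4a2 (0.22, adjusted p = 0.0263) were also called by edgeR's quasi-likelihood test.

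In mature pit against isthmus cells, 8 of the 10 genes were called, beside 38.0% of 13894 genes. Kcnj16 (3.26 ± 0.16, adjusted p = 5.83e-09), Kcnj15 (1.08 ± 0.14, 4.23e-05) and Slc4a2 (0.34 ± 0.11, 0.0196) were higher in mature pit cells on the log2 scale by edgeR's quasi-likelihood test. Slc4a2 was at -0.0046 under total UMIs, where the median of all genes moved by -0.35 and the calls were 1252 higher and 5676 lower in place of 2485 and 2792. Kcne2 (-1.88 ± 0.42), Kcnq1 (-0.79 ± 0.17), Atp4a (-0.76 ± 0.21), Atp4b (-0.63 ± 0.21) and Clic6 (-0.48 ± 0.09) were lower under both scalings. Of the same 17 cells, 6 were isthmus cells and 0 were mature pit cells. With the 17 removed, Atp4a was at 0.0070 and Atp4b at -0.10 (adjusted p = 0.982 and 0.673, edgeR's quasi-likelihood test), and neither was called. Without pool T of the mature pit cells the calls of Atp4a (-0.62, adjusted p = 0.126), Atp4b (-0.39, 0.281), Kcne2 (-1.15, 0.0979) and Slc4a2 (0.32, 0.141) were lost by the same test, and without pool K that of Slc4a2 (0.31, 0.125). Slc9a4 was at 0.03, and at -0.32 with a call under total UMIs, and Slc26a7 had 3 UMIs in mature pit cells.

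Dataset 1 allowed corpus pit cells to be set against antrum pit cells. Of the 10 genes, 4 were higher in corpus pit cells and the other 6 did not pass, beside 9.24% of 10229 genes called in either direction. Kcnj16 held 252 and 138 CPM in corpus mature pit cells (tube1 and tube2) and 78.8 and 76.8 in corpus pre-pit cells, against 28.6 and 25.3 in antrum mature pit and 0 and 2.07 in antrum pre-pit cells. Kcnj15 held 329 and 324 in corpus mature pit and 261 and 232 in corpus pre-pit cells, against 68.9 and 50.6 in antrum mature pit and 45.6 and 31.01 in antrum pre-pit cells. All corpus values lay above all antrum values for both genes. The differences were 4.63 ± 0.34 and 2.55 ± 0.15 (log2, SE; adjusted p = 5.05e-08 and 3.93e-09, edgeR's quasi-likelihood test), and that of Kcnj16 includes an antrum pool at 0.

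Clic6 (1.09 ± 0.19, adjusted p = 0.00085) and Slc9a4 (0.55 ± 0.11, 0.00252) were also higher in corpus pit cells by edgeR's quasi-likelihood test. For Clic6 the regions overlapped between types, since antrum pre-pit cells (47.0 and 43.4 CPM) lay above corpus mature pit cells (23.1 and 35.4). Slc9a4 held 259 and 283 in corpus mature pit and 294 and 268 in corpus pre-pit cells, against 187 and 179.5 in antrum mature pit and 213 and 179.9 in antrum pre-pit cells. Atp4a (1.57 ± 0.76) and Atp4b (1.57 ± 0.82) were not called, and 83 of the 95 Atp4a UMIs and 97 of the 107 Atp4b UMIs of corpus mature pit cells came from 1 cell.

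Other ion transport genes and genes of pump trafficking were counted as the wider pathway. Of 21 listed transport genes, 17 were tested in dataset 2, and 8 were higher in parietal cells, 5 lower and 4 did not pass, with a median of -0.12 (log2), beside 35.2% higher and 32.6% lower of all genes tested. Kcne1, another KCNQ1 accessory subunit, held 57.6 and 61.8 CPM in parietal cells of K and T, and type means of 0.353 or less elsewhere. Slc26a9, a chloride channel and transporter, held 827 and 681 against type means of 3.77 to 5.67, and Aqp4, a water channel, rose by 5.93 ± 0.14. The largest falls were Kcnn4 (-3.14 ± 0.16), a calcium-activated potassium channel, Slc4a4 (-2.96 ± 0.20), a sodium bicarbonate cotransporter, and Clic1 (-1.15 ± 0.20). The highest adjusted p of these, 0.000144, was that of Clic1 by edgeR's quasi-likelihood test.

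Of 14 trafficking genes, all tested, 9 were higher in parietal cells of dataset 2, 4 lower and 1 did not pass, with a median of 0.38 (log2), beside the same background of 35.2% and 32.6%. Hip1r (2.29 ± 0.06), which links clathrin coats to actin, Ezr (1.84 ± 0.06), the membrane-actin linker ezrin, and Rab11a (0.77 ± 0.06), a GTPase of recycling membranes, rose most. Stx3 (-0.997 ± 0.08), Rab25 (-0.84 ± 0.07) and Cttn (-0.67 ± 0.09) fell most. In dataset 1, 6 transport genes were higher, 6 lower and 6 not called of 18, and 5 trafficking genes were higher, 6 lower and 3 not called of 14, beside 31.7% higher and 26.9% lower of all genes. The medians there were -0.13 and -0.18, so that of the trafficking genes had the other sign than in dataset 2.

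Between clusters 8 and 1, 1 transport gene was higher in cluster 8, 4 were lower and 13 did not pass, and 3 trafficking genes were higher, 3 lower and 8 not called, beside 27.2% of all genes called in either direction. Kcne1 (-1.33 ± 0.18, adjusted p = 1.13e-05) and Slc26a9 (-0.69 ± 0.23, 0.0245) were lower and Kcnj2 (0.63 ± 0.19, 0.0138) was higher, by edgeR's quasi-likelihood test. Among the trafficking genes Arf6 (0.50 ± 0.13), Rab25 (0.33 ± 0.09) and Cdc42 (0.33 ± 0.07) were higher, and Rab11a (-0.35 ± 0.09), Vamp8 (-0.28 ± 0.10) and Stx7 (-0.28 ± 0.08) were lower, with adjusted p between 0.00147 and 0.0374 by the same test.

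Around Kcne2 and Clic6 on chromosome 16, the 3 genes between them that the count tables named were also higher in parietal cells of dataset 2, at 1.14 ± 0.06 for Smim11 and 2.18 ± 0.06 for Rcan1 (log2, SE; adjusted p = 2.67e-10 and 3.06e-13, edgeR's quasi-likelihood test) and, for Kcne1, by the levels given above. These neighbours were looked up after the values of the 10 genes were seen, and 35.2% of all 13894 genes tested were called higher there. Kcne1 was at 0 in both pools of mature pit cells.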

How the data were processed

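Single cells of 10-week-old male C57BL/6J mice were measured by Quartz-Seq2. Per the labels and the methods of the study, the authors demultiplexed reads with bcl2fastq 2.20.0.422, processed them with Drop-seq tools and STAR on GRCm39 with GENCODE gene models, counted UMIs per gene and cell, removed cells under 2500 detected genes and clustered the rest with Seurat. The deposited tables held raw UMI counts of all wells and, for the kept cells, cluster numbers and the percent of mitochondrial UMIs, as the authors computed them. Cluster names were those of the study, and plates and pools of dataset 2 are named as in the cell names and the deposited annotation. For dead cells of dataset 1 the labels name ToPro3 and the methods propidium iodide. No doublet caller was run, since single cells were gated in the sort. The authors' mitochondrial percent was recomputed from the counts of 26 mitochondrial genes.

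UMIs were summed per cell type or cluster in each pool, because cells are not replicates. The test was that of edgeR 4.0.16, run in R 4.3.3, on these sums (TMM, low-count filter by filterByExpr, quasi-likelihood test, Benjamini-Hochberg adjustment over all genes tested, called at an adjusted p under 0.05), without a pool term. SE is the log2 difference over the square root of F. With 2 pools per group, p-values measure only the spread between pools, estimated over all groups of a fit and not only those compared. All types of a dataset, or all epithelial clusters of dataset 2, entered 1 fit, and pool T was set against pool K over the sums of parietal cells per plate. The scripts were tested on simulated data. The 10 genes and all gene lists were chosen with earlier results of these data known. The genes named were the 10, the 3 called genes of each list with the largest rise and fall in parietal cells of dataset 2, up to 3 per direction between clusters 8 and 1, and the 3 genes most like Atp4a, Slc9a4 and Kcnj15. A gene that this rule names between clusters 8 and 1 is not reported here.

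Each pool gave its types from 1 set of mice, which pairs the types. Correlations of deviations within a pool ran from -0.029 to 0.053 over 21 pairs of types of dataset 1, from 0.069 to 0.411 over 15 pairs of dataset 2, and from 0.00061 to 0.254 over 91 pairs of clusters. Levels, ratios and shares were computed in Python 3.11.15 with numpy 2.4.6, pandas 2.3.3 and scipy 1.17.1, and figures with matplotlib 3.10.9. Exact 95% intervals cover counting error only. Shares were taken after thinning to 10000 UMIs per cell, without the shallower cells. The alternatives were edgeR's RLE factors, DESeq2 1.42.0, no low-count filter beyond 1 UMI, no mitochondrial genes, pool as a term, plates as units, each pool or plate left out, removal of cells of other types above 0.1 of the median parietal pump level and, chosen after seeing the data, scaling by total UMIs alone.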

Additional observations from a re-analysis of the deposited data

Results flagged for a closer look

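Kcnj15 in parietal cells of plate p13 of pool K stood apart from the other plates of that pool. It was at 770.0 CPM (UMIs per 1000000) there (58 cells, 2140 UMIs), while the other plates of pool K lay between 709 and 721. The gap to the nearest plate was 0.813 of the whole range, above the critical value of 0.625 for 6 plates. It was the 1 plate value of 20 groups of plates to pass this limit, and chance alone gives about 1 in 20.

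Wells under 2500 detected genes, which entered no comparison, carried pump RNA. Atp4a in them was at 600.2 CPM in tube1, 390.4 in tube2, 3948 in pool K and 3688 in pool T. These values are above the level of Atp4a in each named type of the same pool other than parietal cells.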

How the results depend on the processing

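Over 34 alternatives the 10 genes gave 848 values, of which 775 kept their direction and side of the threshold, 25 lost their call, 25 gained one and 23 turned direction. In parietal cells against the other types the calls held in both datasets under every alternative run, except Slc9a4 of dataset 2 without pool T. The pool as a term changed no other call than the 4 given in the report.

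Between clusters 8 and 1, 8 of the 10 genes were called with no filter and 8 with plates as units, 3 under total UMIs alone (where Clic6 was 0.033), and 1965 to 2749 genes with a pool left out. Between chief and neck cells, total UMIs alone called 9800 genes and gave -0.036 for Atp4b, -0.45 for Kcnj15 and -0.81 for Slc26a7. Slc4a2 there was 0.0073 with RLE factors and 0.013 with DESeq2, Slc26a7 -0.11 with no filter, and leaving out a pool gave -0.27 to 0.020 for Slc4a2 and -1.32 to 0.46 for Slc26a7. Between neck and isthmus cells, 7 of the 10 were called with plates as units (Atp4a 0.018) and 9 without the cells of high pump level, Atp4a and Atp4b included, whose levels that removal sets in part. Leaving out a pool gave -0.29 to 0.089 for Atp4a, -0.014 to 0.27 for Kcnj15 and -0.053 to 0.80 for Slc26a7. Between mature pit and isthmus cells, leaving out a pool called 4 to 7 of the 10 and 3399 to 4318 genes, with -0.090 to 0.084 for Slc9a4. Total UMIs alone gave -0.0046 for Slc4a2 and -0.32 for Slc9a4, no filter gave -0.055 for Slc9a4, and removal of cells of high pump level gave 0.13 for Slc26a7, 0.0070 for Atp4a and -0.10 for Atp4b. Between corpus and antrum pit cells, DESeq2 called 548 genes and leaving out a pool 563 to 618, with -0.037 to 2.16 for Atp4a and -0.49 to 2.396 for Atp4b. Between pools T and K, no filter called 458 genes, leaving out a plate 90 to 303 and 0 to 2 of the 10, and Kcne2 was 0.0062 under total UMIs alone and -0.041 to 0.0071 with a plate left out. The causes were not tested. Depth limits Slc26a7 outside parietal cells, where it held 127 UMIs in all other named types of dataset 2.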
